A study of Mus musculus with 288 samples.

Results

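The cytochrome P450 genes of families 1 to 4 were followed in 6 tissues of the mouse after intermittent hypoxia (IH). Members were the genes whose symbol reads Cyp, a family number from 1 to 4, a subfamily letter and a gene number, with a mean of at least 0.5 TPM (the share of a gene in the transcripts of a library, corrected for transcript length) in 1 or more of the 12 tissue and treatment groups. Of 35904 genes in the files, 75 had such a symbol and 63 passed: 3 of family 1, 40 of family 2, 5 of family 3 and 15 of family 4. The nearest symbols under the limit were Cyp2d11, with a highest group mean of 0.475 TPM, and Cyp3a44, with 0.225 TPM, while Cyp3a16 and Cyp2c39 stood just inside it, at 0.507 and 0.574 TPM in the liver in normoxia. Wild type male C57BL/6J mice, 8 weeks old, spent 7 days in normoxia or in IH cycling between 21 and 8% O2 in the resting phase, and mice of either treatment then spent 2 days in constant darkness in normoxia. On the second day 6 organs (liver, kidney, lung, heart, muscle and cerebellum) were collected every 3 hours at 8 times from 1:30 to 22:30, with 3 replicates per time, which gave 24 libraries per tissue and treatment and 288 in all. The tissue was thus taken after the hypoxia had ended, each library came from 1 mouse, and the exposure gives low oxygen without an obstructed airway. The question was which of these enzymes differ between treatments in their mean over 24 hours, and which vary with the time of day.

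Cytochrome P450 enzymes are heme proteins of the endoplasmic reticulum that use molecular oxygen and electrons from NADPH, passed on by the reductase Por, to oxidise their substrates. Families 1 to 3 hold the main enzymes for drugs, toxins and steroids and several arachidonate epoxygenases, and family 4 holds mostly fatty acid hydroxylases. Their genes are switched on by ligand-activated factors, among them the aryl hydrocarbon receptor (AHR) for family 1, the receptors CAR and PXR for Cyp2b and Cyp3a, and PPARalpha for Cyp4a, and in the liver several of them vary over the day through clock output factors such as Dbp.

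Defining markers of each tissue were found in its libraries, but some libraries also held transcripts of another tissue. One liver library, IH at 13:30, replicate 2, had 971 TPM of 6 summed hepatocyte markers, against 42840 to 84575 TPM in the normoxia livers, and 6328 TPM of 5 heart muscle markers, and a single gene, Gm19220, reached 632361 TPM in it. Its P450 genes summed to 373 TPM. In the heart, 6 libraries held 322 to 2592 TPM of 5 summed lung markers against 0.109 to 39.5 TPM in the other 42. The cerebellum libraries held heart muscle markers throughout (28.0 to 7312 TPM), and in 1 of them, IH at 1:30, replicate 3, the neuron markers summed to 293 TPM, against 1367 to 5123 TPM in normoxia. One lung library, IH at 22:30, replicate 1, held 403 TPM of hepatocyte markers; without it the same number of lung members (7) was called. Counts of members in the liver, heart and cerebellum were also made without the libraries named. In whole tissue, fewer cells of a type and less RNA per cell cannot be told apart.

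The liver held most of the P450 transcripts in normoxia. The 63 genes summed to 14972 ± 1456 TPM (SD, n = 24) in the liver, 3861 ± 687 TPM in the kidney and 3408 ± 401 TPM in the lung, and to 323 ± 169 TPM in the muscle, 125 ± 20.7 TPM in the cerebellum and 112 ± 75.7 TPM in the heart. The order of the last 2 is within their spread. As many as 41 genes had their highest mean in the liver, 9 had it in the kidney, 8 in the lung, 4 in the cerebellum and 1 in the muscle. At a mean of at least 1 TPM, the liver had 46 members, the kidney 28, the lung 21, the cerebellum 18, the heart 16 and the muscle 15. As many as 23 members reached 1 TPM in a single tissue, 11 in all 6 tissues and 8 in none.

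**Figure D1:**
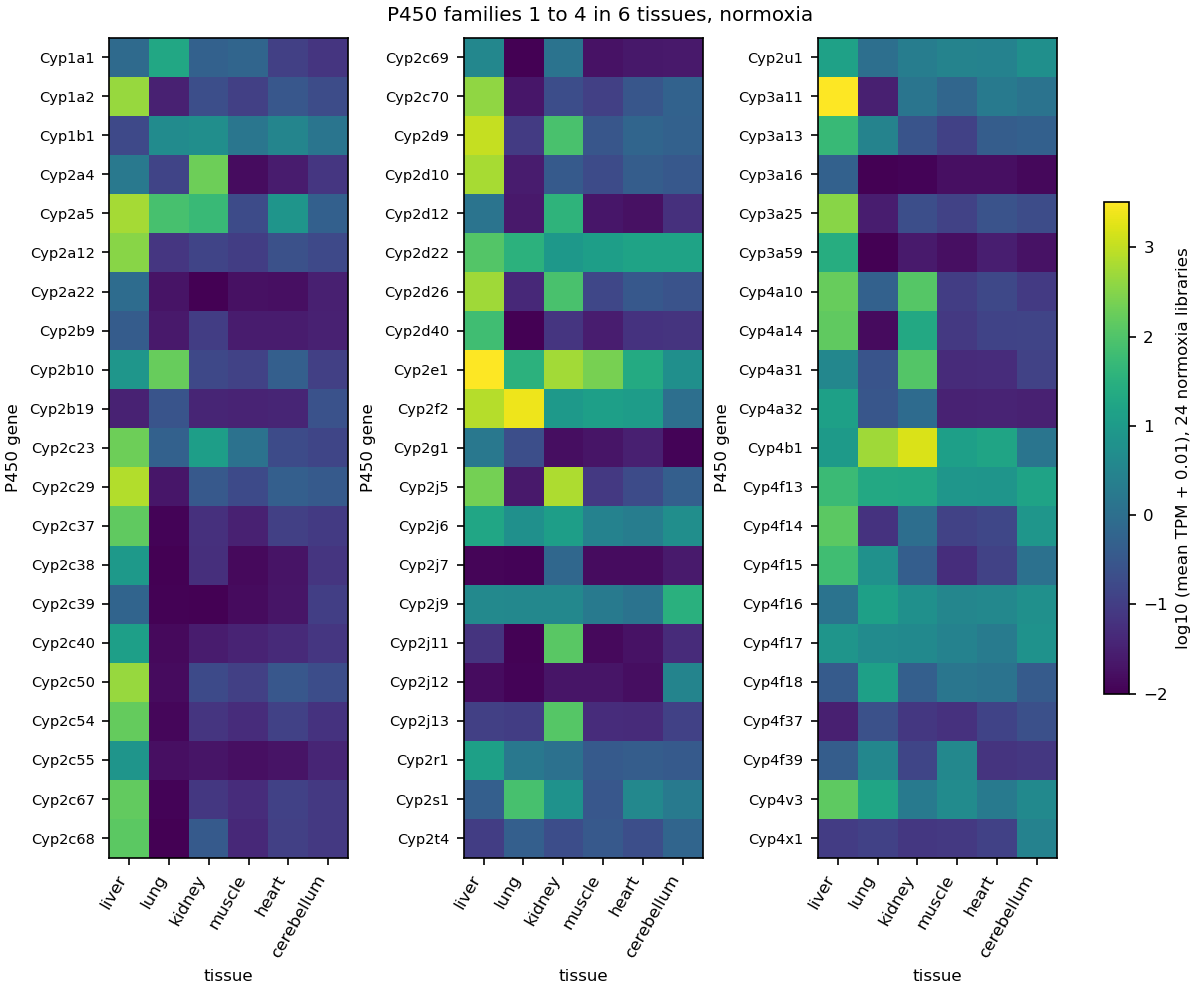
Mean TPM in normoxia of the 63 P450 genes (rows) in 6 tissues (columns), on a log10 scale after adding 0.01; each cell is the mean of 24 libraries. Cyp2e1 and Cyp3a11 were the highest in the liver, at 3251 and 3230 TPM, Cyp2f2 in the lung, at 2350 TPM, and Cyp4b1 in the kidney, at 1551 TPM.

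In the liver the ethanol-oxidising Cyp2e1 (3251 ± 597 TPM) and the main drug-metabolising Cyp3a11 (3230 ± 495 TPM) did not differ beyond their spread, and Cyp2d9, a male-biased testosterone hydroxylase (1078 ± 160 TPM), Cyp2f2 (794 ± 133 TPM) and Cyp2c29 (766 ± 185 TPM) followed, the last pair again within their spread. In the lung Cyp2f2, which activates naphthalene in club cells, reached 2350 ± 370 TPM, ahead of Cyp4b1 (530 ± 76.0 TPM), the CAR target Cyp2b10 (170 ± 45.6 TPM), Cyp2s1 (82.8 ± 13.4 TPM) and Cyp2a5 (80.8 ± 36.8 TPM). In the kidney Cyp4b1 led with 1551 ± 351 TPM, before the epoxygenase Cyp2j5 (687 ± 97.9 TPM), Cyp2e1 (572 ± 116 TPM), Cyp2a4 (200.6 ± 47.9 TPM) and the Cyp2j11 gene (126 ± 18.8 TPM). The cerebellum was led by Cyp2j9, at 32.2 ± 7.41 TPM against 3.85 TPM or less in the other 5 tissues, and it was also where Cyp2j12 (3.00 TPM) and Cyp4x1 (2.71 TPM) were highest. In the muscle Cyp2e1 stood at 247 ± 159 TPM, and no other member was above 100 TPM there.

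Neighbouring genes of one cluster could differ by tissue. The members lie in a few clusters on the mouse genome (GRCm38): 13 on chromosome 19 (all Cyp2c), 13 on chromosome 7, 13 on chromosome 4, 8 on chromosome 17, 6 on chromosome 15 (all Cyp2d) and 5 on chromosome 5 (all Cyp3a), with the rest on chromosomes 3, 8 and 9. Cyp2a5 (coumarin hydroxylase, chr7:26835305-26843548, plus strand) and Cyp2a4 (a steroid hydroxylase, chr7:26307169-26315088, plus strand) have coding sequences identical at 98.4% of positions. Cyp2a5 was at 576 TPM in the liver and 53.7 TPM in the kidney, and Cyp2a4 was at 1.67 TPM in the liver and 200.6 TPM in the kidney. Likewise Cyp2d12 was at 37.5 TPM in the kidney and 1.32 TPM in the liver, while Cyp2d9 of the same cluster was at 86.6 and 1078 TPM. Altogether 15 members have another member at 95% coding identity or more (Cyp2a4, Cyp2a5, Cyp2a12, Cyp2a22, Cyp2c37, Cyp2c50, Cyp2c54, Cyp2c67, Cyp2c68, Cyp2c69, Cyp3a25, Cyp3a59, Cyp4a10, Cyp4a31 and Cyp4a32), and reads of such pairs may be divided between them with error, so their separate values are uncertain.

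The starts of the Cyp2a pair are shown because the pair is so alike in sequence and so unlike in tissue, and because Cyp2a5 had the largest amplitude in normoxia of the members called rhythmic in the liver; Cyp2b10, another gene of the same cluster, holds the same 8 letters. The stretches run from 100 to 10 bases before the start of transcription annotated by RefSeq (GRCm38.p6, plus strand, chr7:26835239-26835328, chr7:26307092-26307181 and chr7:25897558-25897647), and capitals mark TTGCATAA, a sequence like the D-box to which Dbp binds, and the TATAAA of a TATA box:
Cyp2a5: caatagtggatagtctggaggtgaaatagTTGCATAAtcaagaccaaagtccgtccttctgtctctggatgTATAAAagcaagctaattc
Cyp2a4: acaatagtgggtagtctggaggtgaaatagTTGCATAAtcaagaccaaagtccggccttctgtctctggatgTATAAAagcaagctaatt
Cyp2b10: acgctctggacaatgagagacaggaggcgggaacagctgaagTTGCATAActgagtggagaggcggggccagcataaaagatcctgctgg

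Over the 250 bases before their starts the Cyp2a5 and Cyp2a4 genes differ by 6 edits. RefSeq had such windows for 51 of the 63 members (57 windows), and TTGCATAA was in 8.77% of them on either strand (Cyp2a4, Cyp2a5, Cyp2b10, Cyp2b19 and Cyp4f14), against 0.694% of 32851 windows of all genes. It was searched after the Cyp2a5 sequence had been seen. The D-box letters TTATGTAA and TTACGTAA were in 0 of the P450 windows, against 0.819% and 0.113% of all windows. The E-box CACGTG was in 3.51% (6.02% of all), the AHR core GCGTG in 21.1% (28.2% of all; Cyp1a1 and Cyp1b1 among them) and TATAAA in 35.1% (12.4% of all). CAAAGTCCA, the form of element to which the liver factor HNF4 binds, was in 12.3% of the P450 windows and 0.384% of all. Its 7 genes, Cyp2c40, Cyp2c67, Cyp2c68, Cyp2c69, Cyp2c70, Cyp3a11 and Cyp3a16, all had their highest mean in the liver, as had 41 of the 63 members. Cyp2c40, Cyp2c67, Cyp2c68 and Cyp2c69 are close copies, with the nearest member at 92.6 to 97.7% coding identity. Cyp3a11 and Cyp3a16 are at 92.8%, and Cyp2a4 and Cyp2a5 at 98.4%. Hits in such copies are not independent, which the shares of windows do not allow for. These letters are matches and not sites of binding. In 5 of the 7, shown for what surrounds the capitals (GRCm38.p6, minus strand; chr19:39812831-39812879, chr19:39741150-39741198, chr19:40187322-40187370, chr5:145879935-145879983 and chr5:145469794-145469842), the windows read:
Cyp2c40: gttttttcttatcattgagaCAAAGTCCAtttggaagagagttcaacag
Cyp2c68: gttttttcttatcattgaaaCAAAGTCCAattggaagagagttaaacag
Cyp2c70: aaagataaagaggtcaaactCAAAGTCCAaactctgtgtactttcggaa
Cyp3a11: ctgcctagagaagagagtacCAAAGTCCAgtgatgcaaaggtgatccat
Cyp3a16: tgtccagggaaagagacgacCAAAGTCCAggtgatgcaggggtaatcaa

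In the liver, 11 P450 genes were lower after IH and 1 was higher. They included enzymes for caffeine-like compounds (Cyp1a2), coumarin (Cyp2a5), testosterone (Cyp2d9), naphthalene (Cyp2f2), drugs (Cyp3a11) and fatty acids (Cyp4a10, Cyp4v3), and the changes lay between 1.502-fold and 2.12-fold. Of 47 members tested (a mean of at least 1 TPM), these 12 were called in limma (Benjamini-Hochberg adjusted p of at most 0.05 together with at least 1.5-fold), where 2.55% of 11334 genes were called lower and 1.1% higher. At the adjusted p alone, 17 members were lower, against 13.3% of all genes. The median log2 change (IH minus normoxia, on scaled TPM + 0.5) was -0.37 over the members and -0.01 over all genes, and 38 of 47 members were below 0. The 11 genes were lower at 8 of 8 times except Cyp4a10 (6 of 8). With TPM as deposited, without scaling, 15 members were lower and 0 higher, against 518 and 70 of all 11334 genes. Over all genes the higher calls were then 11.9% of calls in place of 30.2%, and the median of all genes stood at -0.12.

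The largest change was that of Cyp2c23, an arachidonate epoxygenase. Its normoxia libraries ranged from 123 to 344 TPM with a median of 190, and its IH libraries from 3.13 to 256 TPM with a median of 88.7 (log2 change -1.08, SE 0.21, limma adjusted p = 2.4e-04). Cyp1a2, the constitutive family 1 enzyme of the liver, ranged from 287 to 620 TPM with a median of 449 in normoxia and from 6.81 to 596 TPM with a median of 254 after IH (log2 change -0.81, SE 0.23, limma adjusted p = 8.7e-03). In each gene the 2 groups overlapped, and most IH libraries of replicates 1 and 2 were the low ones. Cyp2f2, a periportal enzyme in the liver, ran from 540 to 1075 TPM (median 809) in normoxia and from 14.8 to 1045 TPM (median 454) after IH, with a log2 change of -0.80 (SE 0.21, limma adjusted p = 4.7e-03). Cyp3a11 ran from 2432 to 4187 TPM (median 3204) and from 61.0 to 4328 TPM (median 2265), with a log2 change of -0.60 (SE 0.21, limma adjusted p = 0.030). Both genes had IH libraries under the lowest normoxia library and others inside the normoxia range. The PPARalpha target Cyp4a10 (-0.79), the pair Cyp2a5 (-0.80) and Cyp2a12 (-0.71), the testosterone hydroxylase Cyp2d9 (-0.71), Cyp4v3 (-0.66), Cyp2c55 (-0.60) and Cyp2d22 (-0.59) made up the rest, with limma adjusted p from 3.2e-03 to 0.049. The calls of Cyp2a5, Cyp3a11 and Cyp4a10 were lost when genes under the mean limit were tested too (adjusted p of 0.124, 0.081 and 0.093), and those of Cyp2c55 and Cyp2d22 with a pseudocount of 1 (-0.53 and -0.58).

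**Figure D2:**
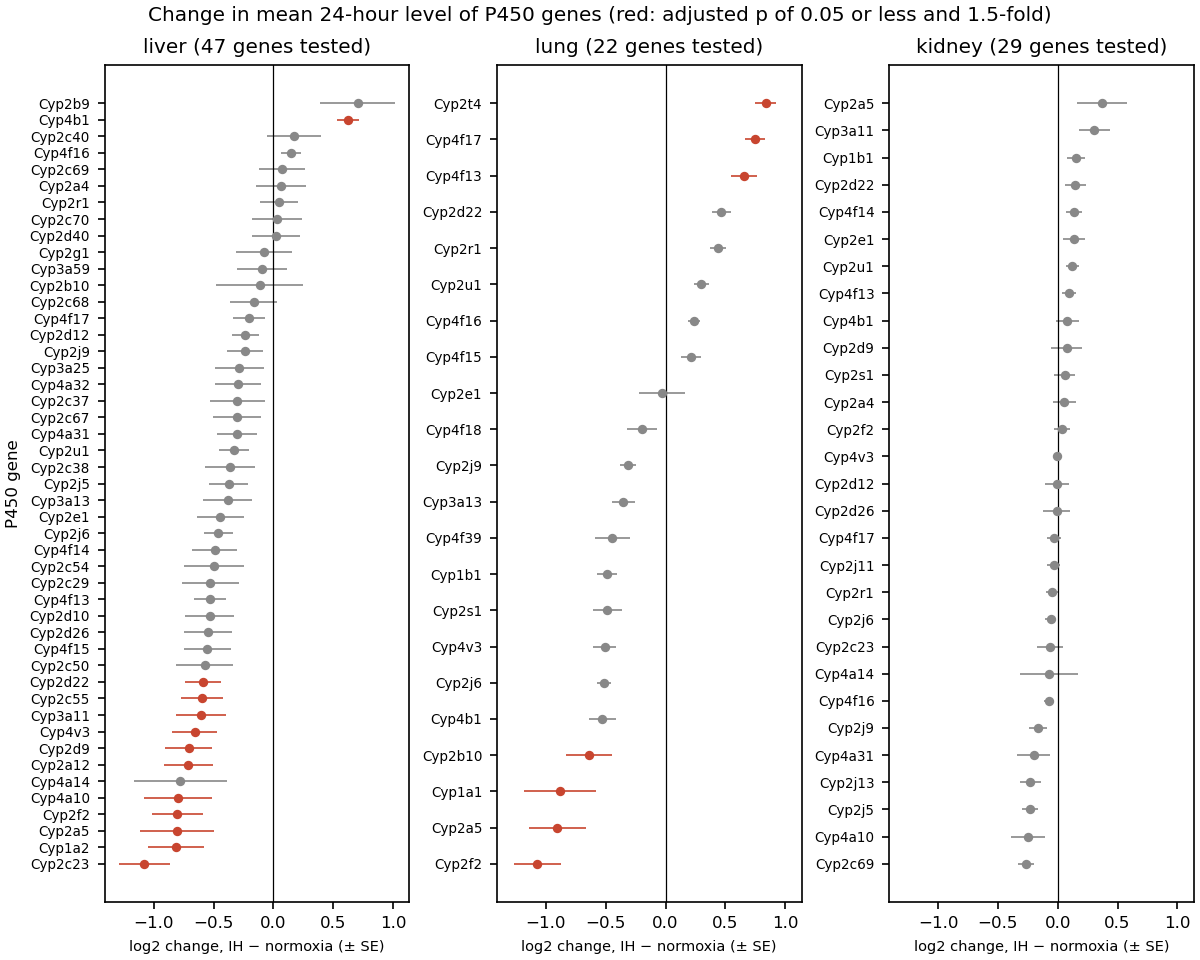
Log2 change of the mean 24-hour level (IH minus normoxia, x axis) with its SE for the P450 genes tested in liver, lung and kidney (rows); red points were called. The liver has 11 red points below 0 and Cyp4b1 above it, the lung 4 below and 3 above, and the kidney none. Of the 3 in the lung, Cyp2t4 entered the test only through its IH libraries.

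The liver decreases differed by replicate number: all 11 genes were below 0 within numbers 1 and 2, while within number 3 Cyp2c55 (-0.44) and Cyp2c23 (-0.15) were below 0 and the other 9 were not. Cyp1a2 had IH medians of 161, 233 and 516 TPM in replicates 1, 2 and 3 (n = 8 times each), against 451, 481 and 415 TPM in normoxia. Cyp2c23 had IH medians of 69.1, 78.9 and 176 TPM against 170, 203 and 211 TPM. The first 2 sets were low and the third was not. The median log2 change over the 47 members was -0.53, -0.92 and 0.24 within replicate numbers 1, 2 and 3, while the median of all genes was 0.00, -0.03 and 0.02. Hepatocyte markers moved with this: 3 of the 6 were called lower, and their sum was 15990 to 45104 TPM in the IH libraries of replicates 1 and 2 other than the one named above, 36304 to 58399 TPM in replicate 3, and 42840 to 84575 TPM in normoxia, with 0 of the 6 at 0 in every library. The P450 sum was 4969 to 12012 TPM, 14162 to 19087 TPM and 11790 to 17270 TPM in the same libraries. Red blood cell markers moved the other way (3 of 4 called higher, sums of 765 to 18106 TPM after IH and 1152 to 2520 TPM in normoxia). The part of these cells in the P450 result was not tested. Without replicate 1 the call was left for Cyp4b1 alone (0.42% of all genes called); the 11 decreases were then -0.48 to -0.96, with limma adjusted p from 0.098 to 0.42. Without replicate 2 it was left for Cyp2c23 alone (0.636% of genes), and the other 10 were at -0.27 to -0.50. Without replicate 3, 28 members were called, 27 lower (8.23% of all genes) and 1 higher (5.24% of genes). Without the library that held heart transcripts 4 members were called lower (Cyp1a2, Cyp2c23, Cyp2f2 and Cyp4a10), against 1.97% of all genes, with log2 changes of -0.63, -0.92, -0.63 and -0.64. The other 7 then had log2 changes of -0.42 to -0.64, under 1.5-fold except for Cyp2a5, whose adjusted p was 0.066.

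**Figure D3:**
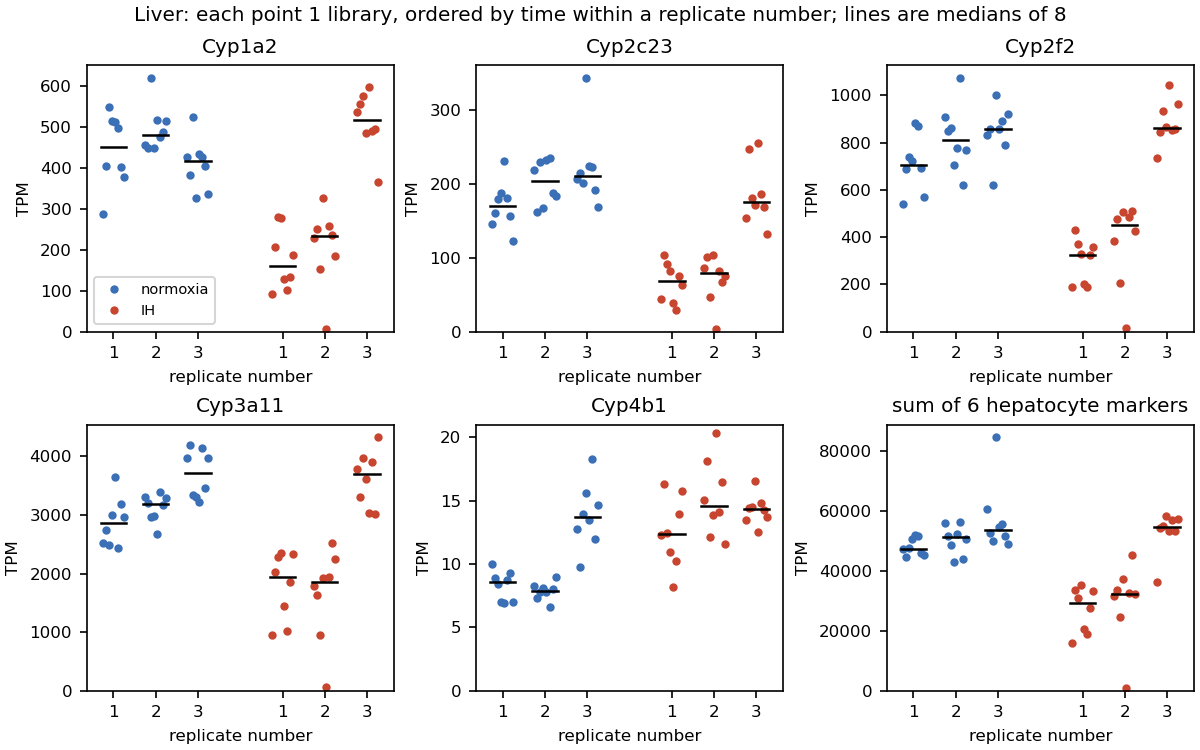
TPM (y axis) of 5 P450 genes and of the sum of 6 hepatocyte markers in the 48 liver libraries, by treatment and replicate number; each point is 1 library and each line the median of 8 times. The IH libraries of replicates 1 and 2 lie low for Cyp1a2, Cyp2c23, Cyp2f2, Cyp3a11 and the markers, those of replicate 3 lie with normoxia, and Cyp4b1 is at 13.7 TPM in normoxia replicate 3 and at 8.58 and 7.91 TPM in replicates 1 and 2.

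Cyp4b1, which is mainly an enzyme of lung and kidney, was the gene that rose in the liver. It ranged from 6.64 to 18.3 TPM with a median of 8.83 in normoxia and from 8.22 to 20.3 TPM with a median of 14.0 after IH (log2 change 0.63, SE 0.09, limma adjusted p = 2.2e-06). The groups overlapped, and the change fell under 1.5-fold without the library that held heart transcripts (0.57), with TPM as deposited (0.50) and without replicate 2 (0.42). Within replicate number 3 it showed little of the difference, at 9.80 to 18.3 TPM in normoxia and 12.5 to 16.6 TPM after IH. Within numbers 1 and 2 Cyp4b1 was at 6.64 to 10.0 TPM in normoxia and 8.22 to 20.3 TPM after IH. Kidney tubule markers rose beside it (4 of 4 tested, with 0 of the 6 at 0 in every library), and so did heart muscle markers (5 of 5; median sums of 12.7 TPM in normoxia and 36.1 TPM after IH, and 49.1 TPM in normoxia replicate 3). In 19 normoxia livers with 0.823 to 11.9 TPM of the 6 summed kidney markers Cyp4b1 was at 6.64 to 15.6 TPM. In the other 5 normoxia livers, all of replicate 3 and with 108 to 121 TPM, it was at 11.97 to 18.3 TPM, as in the IH livers (41.4 to 130 TPM of markers in 23 libraries, with Cyp4b1 at 8.22 to 18.2 TPM). The part of the kidney and heart transcripts in the change of Cyp4b1 was not tested.

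Among the liver groups of known regulation, the AHR target Cyp1a2 was called lower. Of the AHR list outside the P450 families 0 of 3 tested genes were (Tiparp, Nqo1 and Ahr itself). Of 6 members driven by CAR and PXR, 2 were lower (Cyp2c55 and Cyp3a11), as were 2 of 5 other genes of that list, the transporter Abcc3 (-1.41) and the carboxylesterase Ces2a (-0.71). The rest of these were Gstm3 and the receptors themselves, Nr1i3 (CAR) and Nr1i2 (PXR). Of 4 PPARalpha targets among the members Cyp4a10 was lower, and targets outside the P450 families that were lower included the peroxisomal enzyme Ehhadh (-0.78) and the pantetheinase Vnn1 (-0.80). Over all liver genes 2.55% were called lower and 1.1% higher. In the other groups the calls were 2 lower of 15 epoxygenases, 2 lower and 1 higher of 11 omega-hydroxylases, and 0 of 3 female-biased members. Of 3 pericentral members 1 was called (Cyp1a2), with 0 of 6 other pericentral genes, and the periportal Cyp2f2 was called with 1 of 7 other periportal genes (Cdh1, -0.85). None of the 8 partners of P450 enzymes (Por and cytochrome b5 among them), 12 regulators and 7 clock output factors was called in the liver in limma. At the adjusted p alone, 1 partner was lower and 0 of the others passed, where 13.3% of all genes were lower. Without the library that held heart transcripts Cyp2c55, Cyp3a11, Cyp4b1 and Cyp4v3 were no longer called, which left 0 of the 6 CAR and PXR members.

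In the lung, 4 P450 genes were called lower after IH and 3 higher, of which Cyp2t4 entered the test only through its IH libraries. The lower ones were Cyp2f2, Cyp2a5, Cyp1a1 and Cyp2b10, the higher ones Cyp2t4, of little known function, and the fatty acid hydroxylases Cyp4f13 and Cyp4f17. They were 7 of 22 members tested in limma, where 4.39% of 15426 genes were called lower and 9.09% higher. With Cyp2t4 left aside, the share of members called higher was near that of all genes. At the adjusted p alone 12 members were lower (41.5% of all genes) and 8 higher (28.9% of all genes), and the median was -0.33 over the members and -0.08 over all genes. The lung depended on scaling: with TPM as deposited the median of all genes was 0.21, 98.0% of calls were higher in place of 67.4%, and 2 members were called lower and 5 higher. Of all 15426 genes, 58 were then called lower and 2908 higher. Folds here are therefore relative to the bulk of lung genes.

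Cyp2f2 ranged from 1830 to 3819 TPM with a median of 2310 in normoxia and from 444 to 2922 TPM with a median of 1733 after IH (log2 change -1.07, SE 0.20, limma adjusted p = 5.2e-06). Its IH medians were 845, 1130 and 2535 TPM in replicates 1, 2 and 3 against 2216, 2340 and 2371 TPM in normoxia. The groups overlapped in each replicate number, since the highest IH libraries of replicates 1 and 2 stood at 2673 and 2269 TPM. This call was kept in 14 of 14 alternatives, from -1.48 to -0.77. Lung epithelial markers were lower too: 4 of 5 were called, with a median log2 change of -0.79, and their sum was 135867 to 268042 TPM in normoxia and 35387 to 203365 TPM after IH, with 0 of the 5 at 0 in every library. Across libraries Cyp2f2 followed the club cell secretoglobin Scgb1a1, with Pearson's r on log2 values of 0.92 in normoxia and 0.97 after IH (n = 24 each; the points share a library and its scale). Their part in the fall of Cyp2f2 was not tested. Cyp2a5 ranged from 35.9 to 205 TPM (median 70.3) and from 13.3 to 186 TPM (median 44.1; log2 change -0.91, SE 0.24, limma adjusted p = 8.6e-04), and Cyp2b10 from 81.6 to 263 TPM (median 163) and from 47.0 to 321 TPM (median 121; log2 change -0.64). In either gene replicate 3 showed little of the difference, at -0.05 and 0.26 on the log2 scale. The call of Cyp2b10 was lost with TPM as deposited (-0.34) and without replicates 1 or 2, and that of Cyp2a5 without replicate 2.

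Cyp1a1, the enzyme most strongly induced through AHR, was called lower, with 2 normoxia libraries far above the rest. In normoxia, 22 libraries ranged from 2.37 to 7.95 TPM and 2 stood at 152 and 212 TPM (replicate 3 at 10:30 and 16:30), and after IH the 24 libraries ranged from 1.95 to 8.89 TPM. Apart from those 2 the groups overlapped almost wholly. The log2 change was -0.88 (SE 0.30, limma adjusted p = 9.2e-03) with all libraries and -0.47 without the 2, which is under 1.5-fold (limma adjusted p = 2.3e-03). The call was kept without replicate 3 (-0.66) and lost with TPM as deposited (-0.61, limma adjusted p = 0.071) and without replicate 1 (-0.96, limma adjusted p = 0.052). Of 4 other genes of the AHR list tested, Ahr itself included, 2 were called lower, the quinone reductase Nqo1 (-0.86) and the aldehyde dehydrogenase Aldh3a1 (-0.81).

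The lung genes that rose had log2 changes above 0 in each replicate number. Cyp4f17 ranged from 3.30 to 5.73 TPM with a median of 4.46 in normoxia and from 4.43 to 24.95 TPM with a median of 8.98 after IH (log2 change 0.75, SE 0.08, limma adjusted p = 1.2e-10), with 0.85, 0.86 and 0.53 within replicates 1, 2 and 3. Cyp4f13 ranged from 15.3 to 32.6 TPM and from 22.6 to 101.7 TPM (log2 change 0.66, SE 0.11, limma adjusted p = 8.8e-07), with 0.11 within replicate 3, and its call was lost without replicate 1. Each of these had some IH libraries inside the normoxia range. Cyp2t4 ranged from 0.281 to 0.685 TPM in normoxia and from 0.708 to 4.21 TPM after IH, and its groups did not overlap (log2 change 0.84, SE 0.09, limma adjusted p = 2.3e-11). It passed the filter of 1 TPM only through its IH libraries, and a gene that enters in this way had to differ. The call of Cyp4f17 was kept in 14 of 14 alternatives. Among other groups in the lung, 2 of 8 omega-hydroxylases were higher, 0 of 2 epoxygenases reached 1.5-fold (Cyp2j6, -0.51, and Cyp2j9, -0.32, both lower at the adjusted p alone), 1 of 8 partners was called lower (the heme-binding Pgrmc1, -0.67) and 8 of 8 were lower at the adjusted p alone (41.5% of all genes), 1 of 7 regulators was higher (Cux2, 0.69), and 2 of 8 clock output factors were higher (Per2, 0.74, and Tef, 0.62). The remaining lists had Cyp2b10 as the single CAR and PXR member tested. Of the PPARalpha list outside the members 0 of 7 genes were called (Ppara itself included). Of 7 tested genes of the hepatocyte zonation lists outside the members 3 were lower (Oat, Rhbg and Cdh1). Over all lung genes 4.39% were called lower and 9.09% higher.

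In the heart Cyp2e1 was the gene called, at 4.83 to 84.7 TPM with a median of 17.7 in normoxia and 5.93 to 128 TPM with a median of 42.4 after IH (log2 change 1.04, SE 0.32, limma adjusted p = 7.7e-03; 16 members tested; 1.1% of 12779 genes higher). It was higher at 8 of 8 times, the groups overlapped, and its changes were 1.62, 1.24 and 0.28 within replicates 1, 2 and 3. The call was lost without replicate 1 or replicate 2, and the log2 change was 1.25 without the 6 libraries that held lung transcripts. Cyp2e1 followed the sum of 4 adipocyte markers, whose median was 54.9 TPM in normoxia and 111 TPM after IH (4.59 to 396 and 4.85 to 516 TPM, 0 of the 4 at 0 in every library and 0 called), with Pearson's r of 0.95 and 0.97 (n = 24 each). The part of fat tissue in the sample was not tested. At the adjusted p alone 9 members passed, against 45.2% of all genes, among them Cyp1b1 (0.43), Cyp4v3 (0.34), Cyp2s1 (0.37) and Cyp4f13 (-0.51). With TPM as deposited the higher calls over all genes were 66.8% in place of 37.4%, the median of all genes was 0.15 in place of 0.04, and 1 member was again called. Of all 12779 genes, 162 were then called lower and 326 higher.

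**Figure D4:**
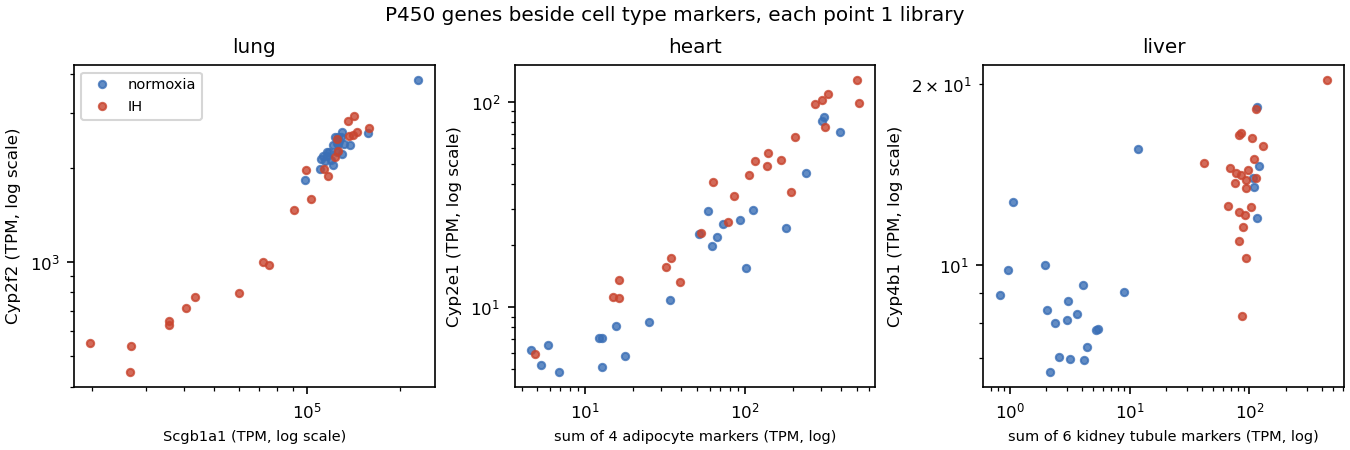
P450 genes (y axis, TPM, log scale) beside markers of cell types (x axis, TPM, log scale) in lung, heart and liver; each point is 1 library. Cyp2f2 lies along Scgb1a1 in the lung (r of 0.92 and 0.97), Cyp2e1 along the adipocyte markers in the heart (r of 0.95 and 0.97), and 5 normoxia livers lie with the IH livers in both Cyp4b1 and the kidney markers.

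In the kidney, muscle and cerebellum 0 members were called in limma, of 29, 15 and 16 tested, where 0.783%, 0.374% and 2.64% of all genes were called in either direction. An unadjusted p of 0.05 or less was found for 7, 1 and 6 of them, against 33%, 23.9% and 30.3% of all genes. At the adjusted p alone the kidney had 2 members (19.8% of genes), the epoxygenase Cyp2j5 (-0.23, from 423 to 831 TPM in normoxia and 389 to 752 TPM after IH) and Cyp2c69 (-0.27). The muscle had 1 (10.4% of genes), Cyp2u1 (0.32, from 1.79 to 4.21 and 2.44 to 5.89 TPM), and the cerebellum 2 (15% of genes), Cyp2j9 (-0.46, from 20.7 to 50.9 and 3.93 to 34.9 TPM) and Cyp4f15 (0.41). Without the cerebellum library of low neuron markers these were -0.40 and 0.41. Each of these overlapped between treatments and lay under 1.5-fold. The 5 highest kidney members other than Cyp2j5 had log2 changes of 0.08 (Cyp4b1), 0.13 (Cyp2e1), 0.06 (Cyp2a4) and -0.04 (Cyp2j11), and 0 of 9 omega-hydroxylases, 0 of 7 epoxygenases and 0 of 3 PPARalpha targets among the members were called in the kidney.

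The change after IH differed between tissues for a share of members. With the difference as an interaction term in limma, and the same thresholds, it was called for 6 of 16 members between liver and lung (16.4% of all genes), 9 of 25 between liver and kidney (7.33%) and 5 of 15 between lung and kidney (14.3%). Cyp4b1 was at 0.63 in the liver and -0.53 in the lung, with a difference of 1.16 (SE 0.15, limma adjusted p = 4.9e-10). Cyp4f13 had the opposite order, at -0.53 in the liver and 0.66 in the lung (difference -1.18, SE 0.17, limma adjusted p = 2.6e-08). Cyp2a5 was at -0.80 in the liver, -0.91 in the lung and 0.37 in the kidney, and differed between liver and kidney (-1.17, limma adjusted p = 0.013) and between lung and kidney (-1.27, limma adjusted p = 4.2e-04). Cyp2f2 was at -0.80, -1.07 and 0.03 in the same order, with differences of -0.84 and -1.11 from the kidney. Without the liver library that held heart transcripts 5 members differed between liver and lung (Cyp4b1 by 1.09 and Cyp4f13 by -1.08) and 6 between liver and kidney (Cyp2a5 by -1.01 and Cyp2f2 by -0.67). The share of all genes called without that library is not given, so these counts are not read as results about the members. For Cyp2a5 and Cyp2f2 the liver and the lung thus each differed from the kidney, and were not called different from each other. In normoxia Cyp2a5 was at 80.8 ± 36.8 TPM in the lung and 53.7 ± 26.05 TPM in the kidney (SD, n = 24), within their spread.

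Daily variation was tested as a 24-hour cosine on log2 values, for genes that reached 1 TPM in some library, with normoxia and IH in one fit and then each alone. In one fit, 3 of 56 members were rhythmic in the liver in normoxia (4.73% of genes) and 3 after IH (6.03%), 1 and 3 of 45 in the lung (2.93% and 6.75%), 4 and 2 of 36 in the kidney (10.2% and 9.23%), and 1 and 3 of 19 in the muscle (4.83% and 10.4%). These shares of members lie near those of all genes. With each treatment alone, so that the wider spread after IH does not enter the normoxia test, 11 members were rhythmic in the liver in normoxia (14.4% of genes) and 3 after IH (2.33%), 5 and 2 in the lung (6.8% and 3.37%) and 6 and 2 in the kidney (18.6% and 5.38%). In the heart 0 of 19 members were rhythmic in either treatment (1.29% and 1.86% of genes), with 3 and 3 at an unadjusted p of 0.05 or less (8.86% and 9.16% of genes) and 0 and 1 (Cyp4b1) in the JTK rank test (0.311% and 1.08% of genes). In the cerebellum 0 of 31 were (0.0374% and 0.0187% of genes), with 19 and 0 at an unadjusted p of 0.05 or less (23.7% and 4.84% of genes) and 0 in the JTK test (0% and 0.00468% of genes). The clock output factor Dbp was rhythmic in either treatment in the tissues other than the cerebellum, with liver peaks at 10.2 and 9.68 h, and in the cerebellum after IH (limma adjusted p = 6.3e-08; 0.082 in normoxia).

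In the liver the member that swung most widely in normoxia among those called was Cyp2a5. It was at 213 ± 79.4 TPM at 1:30 and 254 ± 10.1 TPM at 4:30 (SD, n = 3), 864 ± 183 TPM at 10:30 and 886 ± 105 TPM at 13:30, and 428 ± 68.3 TPM at 22:30. No library at 1:30 or 4:30 reached the lowest library at 10:30 or 13:30. Its amplitude was 0.98 on the log2 scale (SE 0.26) with a peak at 14.2 h in normoxia (limma adjusted p = 0.039, and 4.4e-07 with normoxia alone), a 3.92-fold range, and 0.86 at 12.7 h after IH (limma adjusted p = 0.082), where 3 replicates at 13:30 stood at 10.6, 253 and 930 TPM. The 10.6 TPM is of replicate 2, the library that held heart transcripts, and these fits include it. Cyp2a4, the near-copy of Cyp2a5, peaked at 14.4 h in normoxia with an amplitude of 0.66 (limma adjusted p = 0.053), at values that may hold Cyp2a5 reads. Cyp2b10, which shares TTGCATAA with them, peaked at 19.7 h with an amplitude of 0.92, and was called with normoxia alone (limma adjusted p = 3.3e-03).

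Cyp2g1, an enzyme known from olfactory tissue, was low in the liver and had its highest mean at the label 7:30: 3.62 ± 1.91 TPM at 7:30 and 0.599 ± 0.286 TPM at 16:30 in normoxia, and 3.27 ± 0.526 and 0.661 ± 0.271 TPM after IH. Sample titles give each time as an hour and do not say what its zero is. Its peak was at 8.52 h in normoxia and 8.35 h after IH (amplitudes 0.78 and 0.97, limma adjusted p = 3.8e-03 and 1.7e-04). Cyp4f39, a hydroxylase of very long fatty acids, ran the other way, from 0.149 ± 0.0514 TPM at 10:30 to 0.690 ± 0.471 TPM at 22:30 in normoxia, with peaks at 22.3 and 22.0 h. In the liver it reached the 1 TPM needed for the test only in normoxia at 22:30, replicate 3 (1.23 TPM). Cyp4f39 thus entered the liver test through a library at its own peak, which limits its call there. It also peaked at 22.7 h in the lung after IH (amplitude 0.58), but at 5.05 h in the muscle after IH (0.44). Cyp4f17 was rhythmic in the liver after IH, with a peak at 24.0 h (0.55). With normoxia alone the liver added Cyp2c23, Cyp2c37, Cyp2c38, Cyp2e1, Cyp3a13, Cyp4a14 and Cyp4f17, of which Cyp4a14, a PPARalpha target, had a 2.83-fold range with its peak at 21.5 h.

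**Figure D5:**
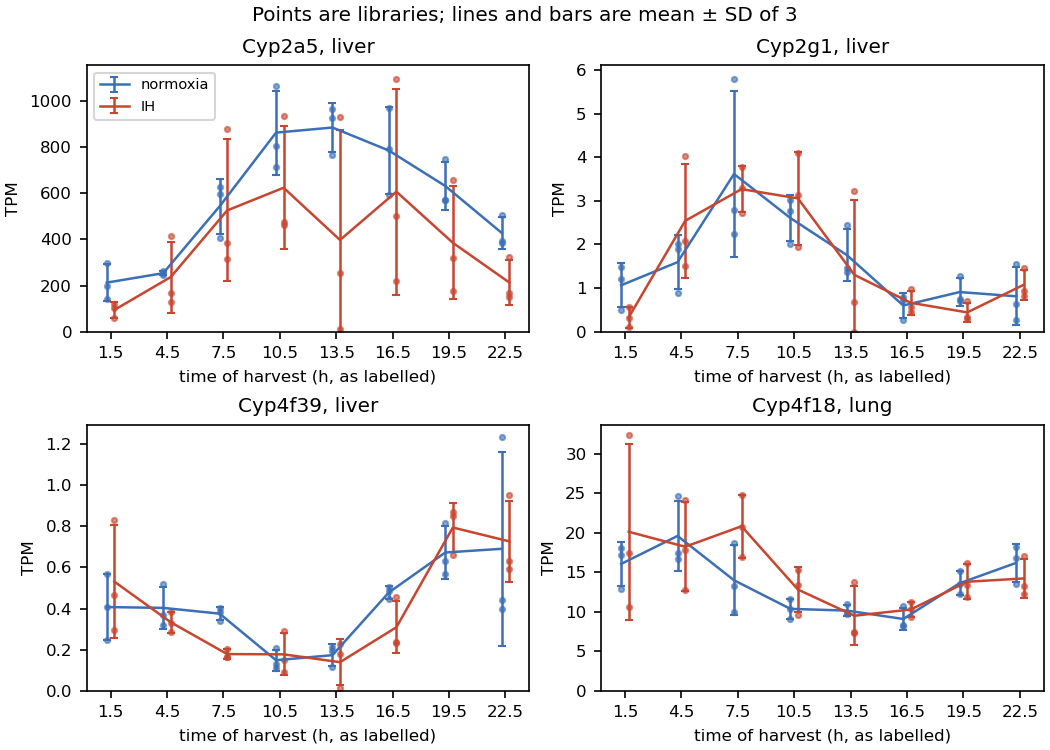
TPM (y axis) by labelled time of harvest (x axis, hours) of Cyp2a5, Cyp2g1 and Cyp4f39 in the liver and Cyp4f18 in the lung; points are libraries, lines and bars the mean ± SD of 3. Cyp2a5 in normoxia goes from 213 TPM at 1:30 to 886 TPM at 13:30, and after IH its replicate 3 lies above the other 2 at 8 of 8 times.

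In the lung Cyp4f18, which inactivates leukotriene B in neutrophils, was rhythmic in either treatment. It was at 19.6 ± 4.42 TPM at 4:30 and 9.09 ± 1.44 TPM at 16:30 in normoxia, and at 18.2 ± 5.66 and 10.3 ± 0.918 TPM after IH. Its peaks were at 2.11 and 4.14 h (amplitudes 0.47 and 0.43, limma adjusted p = 2.6e-03 and 4.1e-03). With normoxia alone, the lung also had Cyp2b10 with a peak at 12.6 h (amplitude 0.42), Cyp4b1, Cyp4f16 and Cyp4f39, and after IH Cyp2j9 was called in the fit of both treatments (0.24 at 0.983 h). In the kidney Cyp2f2 peaked at 1.73 and 1.65 h (amplitudes 0.25 and 0.24) and Cyp2j9 at 5.91 and 8.03 h (0.22 and 0.25) in normoxia and after IH, and Cyp2j7 (0.25) and Cyp4a32 (0.23) were called in normoxia. The muscle had Cyp2e1 in normoxia, with a 2.97-fold range and a peak at 9.79 h, and Cyp2f2 (0.65 at 16.7 h) and Cyp4b1 (0.26 at 16.1 h) beside Cyp4f39 after IH. Cyp2e1 followed the adipocyte markers in the muscle too (r of 0.81 in normoxia and 0.87 after IH, n = 24 each), and their part in its rhythm was not tested.

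A call in one treatment and not in the other did not amount to a difference between them. In the test of a changed rhythm 0 members were called in limma in any of the 6 tissues, and 0% of 101617 tests over all genes, with smallest adjusted p from 0.70 in the cerebellum to 1.00 in the liver. At an unadjusted p of 0.05 or less there was 1 member, Cyp2f2 in the muscle (p = 0.020 in limma; 4.62% of genes in the muscle). For Cyp2a5 in the liver the peaks of the 2 treatments were 14.2 h (SE 0.99) and 12.7 h (SE 1.14), with the library that held heart transcripts included.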

How the data were processed

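RNA-seq libraries (poly(A), directional kit) were sequenced by the authors, quantified with Kallisto against the Ensembl mouse transcriptome and summed to genes, in TPM, the unit deposited for 35904 genes; the submitters' processing notes name mm10, bcl2fastq and FastQC 0.11.3. TPM keeps no read number, so depth and counting precision are unknown. Labels gave tissue, treatment, time and replicate number; 0 pairs of libraries were identical, and libraries of different organs are not tied to animals, so that p-values measure the spread between these libraries and tissues were taken as independent. Within a tissue, each library was scaled by its median ratio to the geometric mean over libraries, taken as log2 with a pseudocount of 0.5, and tested with limma 3.58.1 in R 4.3.3 (intensity trend, treatment alone, 2-sided) over all genes averaging 1 TPM or more; levels printed are TPM as deposited. Calls needed 1.5-fold at a Benjamini-Hochberg adjusted p of at most 0.05 (rhythm: the p alone). Rhythm was tested as cosine and sine terms of 24 h, and by a re-implemented JTK test. Named genes were all those called, the 5 highest of the liver, lung and kidney, rhythmic members and members of the gene lists; others named (Cyp2j9, Cyp2j12, Cyp2u1, Cyp4x1 and further examples) were chosen after their values were seen. Not every gene of the lists is reported here. Members, lists and tests were chosen with earlier results of these data known. Alternatives were other pseudocounts, filters and scaling, time or replicate terms, a replicate block and left-out libraries. Scripts were tested on simulated data. Positions are of GENCODE and sequences of RefSeq (GRCm38), with edlib 1.3.9.post1 for identity; Python 3.11.15, numpy 2.4.6, scipy 1.17.1, pandas 2.3.3 and matplotlib 3.10.9 were used.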

Additional observations from a re-analysis of the deposited data

Results flagged for a closer look

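These members were marked because their change after IH differed between 2 tissues in the interaction test (limma, adjusted p of 0.05 and 1.5-fold); values are differences of log2 changes, and libraries of the 2 tissues may come from the same mice. Between liver and lung the change of Cyp4b1 was higher in the liver by 1.16, while Cyp4f13 (-1.18), Cyp2d22 (-1.05), Cyp4f17 (-0.95), Cyp4f15 (-0.76) and Cyp2u1 (-0.63) were lower in the liver. Between liver and kidney 9 genes were lower in the liver: Cyp2a5 (-1.17), Cyp2c23 (-1.01), Cyp3a11 (-0.91), Cyp2f2 (-0.84), Cyp2d9 (-0.78), Cyp2d22 (-0.73), Cyp4v3 (-0.65), Cyp4f14 (-0.63) and Cyp4f13 (-0.62). Between lung and kidney Cyp4f17 was higher in the lung by 0.78, and Cyp2a5 (-1.27), Cyp2f2 (-1.11), Cyp1b1 (-0.64) and Cyp4b1 (-0.61) were lower in the lung. The differences of Cyp1b1 and Cyp4b1 between lung and kidney fell under 1.5-fold with TPM as deposited, at -0.33 and -0.26, and 4 of the liver differences did so without the liver library that held heart transcripts (Cyp2u1 against the lung, and Cyp4f13, Cyp4f14 and Cyp4v3 against the kidney). No group of 4 to 10 samples was available for a test of single outlying libraries, since each time point had 3 replicates and each treatment 24.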

How the results depend on the processing

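Depth is unknown, and most decreases in the liver and lung were larger in replicates 1 and 2 than in replicate 3. Left-out libraries and fits of each treatment alone were chosen after seeing the data. Leaving out each replicate number in turn gave these ranges of members called: mean change in liver 1 to 28, lung 3 to 11, kidney 0 to 1, heart 0 to 2 and cerebellum 0 to 1; rhythm in normoxia in liver 1 to 2, lung 0 to 1, kidney 1 to 3, muscle 0 to 1 and cerebellum 0 to 12; rhythm after IH in liver 2 to 5, lung 0 to 3, kidney 0 to 3 and muscle 0 to 3; difference of changes between liver and kidney 3 to 13 and lung and kidney 4 to 8. Uncalled kidney genes changed sign in some of them: Cyp2a4 ranged from -0.0245 to 0.20 (-0.0107 without replicate 1), Cyp2e1 from -0.0295 to 0.28, Cyp2j11 from -0.10 to 0.0328 and Cyp4b1 from -0.0042 to 0.22. Without the liver library that held heart transcripts 4 members changed in the liver and 6 were rhythmic after IH, and without the cerebellum library of lowest correlation 7 were rhythmic in the cerebellum in normoxia. For most of these settings the share of all genes called is not given, so the counts are not read as results about the members.

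Rhythm calls depended on the scale and test. On linear TPM there were in normoxia 0 in lung, kidney and muscle and 2 in cerebellum, and after IH 0 in kidney and 1 in muscle. With TPM as deposited there were in normoxia 0 in kidney and muscle and 6 in cerebellum, and after IH 6 in liver, 0 in kidney and 1 in muscle. With each treatment alone there were 11 in liver and 5 in lung in normoxia and 1 in muscle after IH. The JTK test gave in normoxia 6 in liver, 2 in lung and 0 in kidney and muscle, and after IH 1 in liver, muscle and heart and 0 in kidney. For most of these settings too the share of all genes is not given, and the counts are not read as results about the members. The causes were not tested.

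The replicate block was tried although nothing ties the numbers to animals or batches. Libraries of the same number correlated above 0.1 in their deviations in 54 of 144 pairs (16 of 24 in the liver, with a median r of 0.224, and 5 of 24 in the lung, with -0.136), and the numbers were taken not to pair samples. The counts of changed members were the same under the replicate block (12 in liver, 7 in lung, 1 in heart), and rhythm moved to 2 in lung and 3 in muscle in normoxia and 7 in liver after IH. The shares of all genes under the block are not given either. A changed rhythm stayed at 0 members in all 42 alternative fits.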

Other observations

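Some P450 values of single libraries stood apart from their group. In the 6 heart libraries that held lung markers Cyp2f2 was at 18.2 to 99.9 TPM and Cyp2a5 at 7.17 to 68.4 TPM, against 0.374 to 3.53 TPM and 0.172 to 1.31 TPM in the other 42, so that the normoxia heart means of Cyp2f2 (11.2 ± 27.8 TPM) and Cyp2a5 (7.37 ± 18.7 TPM) rest on them. In the liver the female-biased Cyp2b9 ranged from 0.0123 to 1.55 TPM in normoxia and from 0 to 12.3 TPM after IH (log2 change 0.71, limma adjusted p = 0.092), with 0.08, 0.41 and 1.63 within replicates 1, 2 and 3. With means of 0.392 TPM in normoxia and 2.01 TPM after IH, it passed the filter of 1 TPM only through its IH libraries. One normoxia liver had 14.96 TPM of Cyp2a4 where the median was 0.994 TPM.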
